A study of Mus musculus with 6 samples.

Results

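The table of liver miRNAs held 1039 rows, of which 192 carried names that mark them as miRNAs predicted from the reads and not taken from a database. These 192 rows were chosen by that name alone. They were predicted from the study's own reads, so which rows exist is not independent of the libraries compared here. Each is written here as its m-number and arm, such as m0518-5p, without the leading word that marks it as predicted. The remaining rows were 762 annotated mouse miRNAs and 85 miRNAs with plant names. Small RNA was sequenced from the livers of wild type ICR mice, an outbred stock, labelled as 30 weeks old, with 1 library per mouse. All of these mice were kept on a high-fat diet (HFD), and after 12 weeks of it they were gavaged for 8 weeks. The J group (3 mice) received JTXK granule, a concentrated extract of several medicinal herbs, and the M group (3 mice) received sterile water. Livers of mice on a standard diet were not analysed here, so the diet is shared by both groups and its effect cannot be seen here.

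An annotated miRNA is usually cut from a folded precursor, the hairpin, by the enzymes Drosha and Dicer. The cut leaves a short duplex whose strands are called 5p and 3p after the arm of the hairpin they come from. As a rule 1 strand is loaded into an Argonaute protein and guides it to messenger RNAs, while the other strand is mostly degraded. Programs that predict miRNAs look for reads that pile up on a genomic stretch able to fold into such a hairpin. Reads from both arms of a hairpin are a common criterion for trusting a prediction. The table gives no sequence and no position for the predicted miRNAs, so neither their seeds nor their genes are described, and every statement below rests on their names and reads.

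The values are reads of a miRNA per 1000000 miRNA reads of its library (RPM), and whole reads were recovered from them. The libraries held 2626353 to 4314134 miRNA reads, so that 1 read was worth 0.232 to 0.381 RPM. mmu-miR-122-5p, the defining miRNA of hepatocytes, was present in every library, and the 4 hepatocyte miRNAs checked summed to 329007 to 379781 RPM. The 6 miRNAs of blood-derived immune cells summed to 763 to 1108 RPM in the J group and 1383 to 4782 RPM in the M group, highest in M group replicate 1. All 6 were detected in every library. The 4 miRNAs of bile duct epithelium summed to 875 to 2269 RPM in the J group and 1096 to 4194 RPM in the M group, again highest in M group replicate 1. The 4 of 5 stromal miRNAs in the table summed to 12582 to 16890 RPM in the J group and 16765 to 25242 RPM in the M group, and here too M group replicate 1 was the highest. Those of red blood cells (3 of 4 in the table) summed to 4362 to 6308 RPM in the J group and 2581 to 9886 RPM in the M group. That of endothelium (1 of 2) had 4166 to 6718 RPM in the J group and 4486 to 5579 RPM in the M group. The group means of these lists differed by -0.12 and 0.11 on the log2 scale. In bulk liver, a change in the number of cells of a type and a change in the RNA of each cell cannot be told apart.

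The predicted miRNAs were many but rare. They made up 18.5% of the rows and 0.0306% of the reads, 6435 reads over the 6 libraries. The median predicted miRNA had 4 reads in all libraries together (quartiles 3 and 12.25), against 58.5 for the annotated mouse miRNAs. No predicted miRNA had fewer than 2 reads in total, 58 had exactly 3, and 137 of the 192 had fewer than 10. At the other end, 14 had at least 100 reads. The most abundant of them took 1284 of the 6435 predicted reads and the 10 most abundant took 63.8%. A mean above 1 RPM in at least one group, the filter of the study, was reached by 46 predicted miRNAs, which held 89.7% of the predicted reads. The other 146 did not reach it and had at most 17 reads each. Just inside the filter were m0172-5p with 1.07 RPM in the J group and m0154-3p with 1.07 RPM in the M group. Just outside were m0308-5p with 0.883 RPM in the J group and m0507-5p with 0.856 RPM in the M group.

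**Figure D1:**
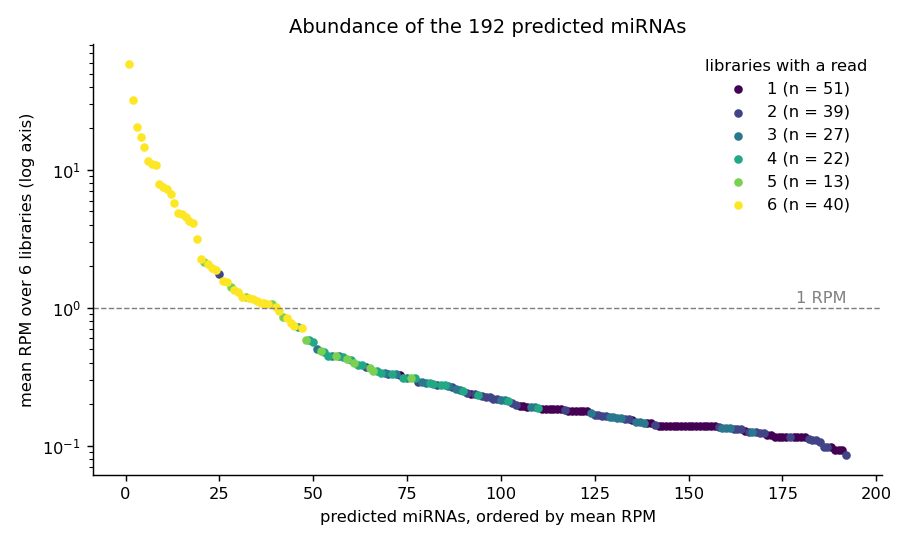
Mean RPM over the 6 libraries (log axis) of the 192 predicted miRNAs in descending order, with colours for the number of libraries that held at least 1 read. The 40 found in all 6 libraries lie towards the left, and 51 were found in a single library.

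Detection followed abundance. Of the 192 predicted miRNAs, 40 (20.8%) were read in all 6 libraries and 51 (26.6%) in only 1 library. Among the annotated mouse miRNAs, 61.9% were read in all 6 libraries and 10.6% in only 1. Among the plant-named rows the shares were 5.88% and 65.9%. Of the 46 predicted miRNAs past the filter, 39 were read in every library, but only 13 had at least 10 reads in each of them. With a minimum of 3 reads per library, 24 of the 192 counted as detected in all 6. For a predicted miRNA with 0 reads in a library, the depth allowed up to 3 reads, which is 0.695 to 1.14 RPM, so absence was not detectable at this depth.

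m0311-5p was the most abundant predicted miRNA, with 82.8, 52.2 and 52.0 RPM in J group replicates 1, 2 and 3 and 37.7, 71.2 and 58.7 RPM in M group replicates 1, 2 and 3. The highest and the lowest of the 6 libraries belonged to different groups, and the groups overlapped. The means were 62.3 ± 17.7 (J mice) and 55.9 ± 16.9 RPM (M mice, SD, n = 3 each). The log2 fold change, 0.17 ± 0.33 (SE), was smaller than the spread between libraries. Its direction turned without M group replicate 1, where the log2 fold change was -0.087, and without J group replicate 1, where it was -0.051.

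m0335-5p, the next in abundance, had 39.6, 51.6 and 31.7 RPM in J mice, against 11.8, 25.2 and 32.4 RPM in M mice. M group replicate 3 lay above J group replicate 3, so the groups overlapped, and M group replicate 1 was the lowest. The means were 41.0 ± 10.03 and 23.1 ± 10.4 RPM (SD, n = 3 each). At 0.88 ± 0.41 (SE) the log2 fold change missed the thresholds (limma, unadjusted p = 0.0663 and adjusted p = 0.71), but it met them after median-of-ratios scaling (0.98) and without M group replicate 3 (1.17). It was 0.48 without M group replicate 1, the lowest value with a library left out.

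m0290-5p was steadier, with 17.4, 25.1 and 23.9 RPM in J mice, against 13.7, 21.7 and 21.0 RPM in M mice. The groups overlapped, with M group replicate 1 the lowest again. m0341-5p ran the other way, with 8.11, 19.0 and 16.0 RPM in J mice, against 32.7, 18.8 and 9.08 RPM in M mice. Its highest library was M group replicate 1, and without that library its log2 fold change moved from -0.37 to 0.047. The summed immune, bile duct and stromal miRNAs were also highest in this library, and their part in the value of m0341-5p was not tested.

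The other members of the 10 most abundant lay between 4.47 and 19.8 RPM in single libraries. m0155-3p, 1 of the 2 among the 10 that come from a 3p arm, had 14.4 ± 2.99 RPM in J mice and 14.8 ± 4.95 RPM in M mice (SD, n = 3 each), with overlapping libraries and a log2 fold change of -0.0023. m0305-3p, the other, had 7.42, 5.58 and 5.35 RPM in J mice, against 9.90, 7.04 and 9.78 RPM in M mice, and the log2 fold change came to -0.47 ± 0.29 (SE). Its M group replicate 2 lay below J group replicate 1. m0326-5p had 15.5, 7.82 and 18.5 RPM in J mice, against 11.4, 7.33 and 9.08 RPM in M mice, where J group replicate 2 fell among the M libraries. Without that library its log2 fold change rose from 0.48 to 0.83 and passed the thresholds, and without J group replicate 3 it was 0.25. m0254-5p, at 11.2 ± 0.740 and 10.6 ± 3.19 RPM, and m0276-5p, at 7.69 ± 3.76 and 8.23 ± 1.24 RPM (SD, n = 3 each), differed between the groups by less than the spread between libraries.

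**Figure D2:**
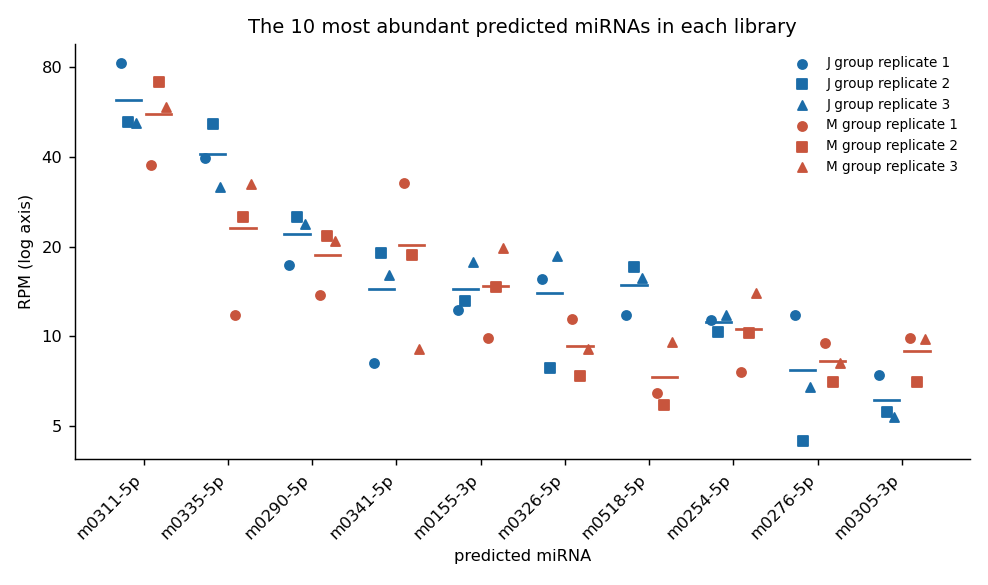
RPM (log axis) of the 10 most abundant predicted miRNAs in each library, blue for the J group and red for the M group, with a bar at each group mean. The groups overlap for 9 of the 10, and for m0518-5p all J libraries, at 11.8 to 17.0 RPM, lie above the M libraries, at 5.86 to 9.54 RPM.

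The spread of these reads between libraries was set against the spread that counting alone would give. The ratio of observed to expected variance at the depths of the 6 libraries is 1 where counting explains all of it. The median ratio was 2.09 over the 46 predicted miRNAs past the filter, above 2 for 24 of them and below 1 for 9. m0073-5p (102 reads, ratio 0.458) and m0407-3p (33 reads, ratio 0.158) varied no more than counting allows, while m0335-5p had a ratio of 17.0 and m0311-5p of 14.3. For the 332 annotated mouse miRNAs past the filter with a mean below that of m0311-5p, the median ratio was 3.47 and the median total was 111 reads. For the 45 predicted ones in that range the median ratio was 2.08 at a median of 39 reads. The difference between these medians was not tested, and the numbers of reads differ too.

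Over the 46 predicted miRNAs past the filter, Pearson's correlation of log2(RPM + 1) between 2 libraries was 0.862 to 0.941 for the 10 pairs without M group replicate 1. It was 0.710 to 0.794 for the 5 pairs with it. These are correlations across miRNAs, which are not independent replicates. The sample label of M group replicate 1 carries a different number after its group letters than all the others, and its meaning is not given. M group replicate 1 was also the shallowest library, and it held the lowest value for 12 of the 46, against 5 to 9 in each other library. It held the highest value for 10, as did J group replicate 3, while J group replicate 2 held it for 12. m0460-5p had 27 reads (10.3 RPM) in M group replicate 1, 1 read in J group replicate 1 and 0 reads in the other 4 libraries. It was at least 9.61-fold higher there than in any other library, taking a limit of 3 reads in whichever of the others a read was worth most. No other predicted miRNA past the filter lay at least 4-fold above all other libraries.

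Summed over all 192, the predicted miRNAs reached 312, 348 and 331 RPM in J group replicates 1, 2 and 3 and 272, 283 and 287 RPM in M group replicates 1, 2 and 3. The 2 groups did not overlap. The means were 330.3 ± 18.3 RPM for J mice and 281 ± 7.83 RPM for M mice (SD, n = 3 each), a ratio of 1.18. The exact permutation test (two-sided) gave p = 0.1, and 3 libraries against 3 can go no lower. The difference of 49.4 RPM between the means included 17.9 RPM from m0335-5p, 7.55 RPM from m0518-5p and 6.47 RPM from m0311-5p, while m0341-5p contributed -5.82 RPM. Without m0335-5p, chosen after the values were seen, the sums were 272 to 299 RPM in the J group and 255 to 260 RPM in the M group and still did not overlap. Without m0311-5p the groups overlapped, at 229 to 296 RPM in the J group and 212 to 235 RPM in the M group (exact permutation test, p = 0.3). The summed immune miRNAs were lower in all 3 J mice than in any M mouse, and their part in the sums was not tested.

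The number of predicted miRNAs with at least 1 read was 99, 122 and 95 in J mice, against 95, 93 and 99 in M mice. J group replicate 2 stood above the other 5, although J group replicate 1 and M group replicate 3 were sequenced more deeply. After thinning to the reads of the shallowest library the expected numbers were 84.0, 112 and 93.5 in the J group and 95, 84.7 and 84.2 in the M group (two-sided, exact permutation, p = 0.7). Of the 51 predicted miRNAs read in a single library, 26 were read in J group replicate 2 alone, against 2 to 9 in each of the others. These 26 had 85 reads together and at most 7 each, and 0 of them passed the filter. J group replicate 2 also held 22 of the 56 plant-named rows read in a single library, but 16 of the 81 such mouse rows, of which M group replicate 1 held 24.

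**Figure D3:**
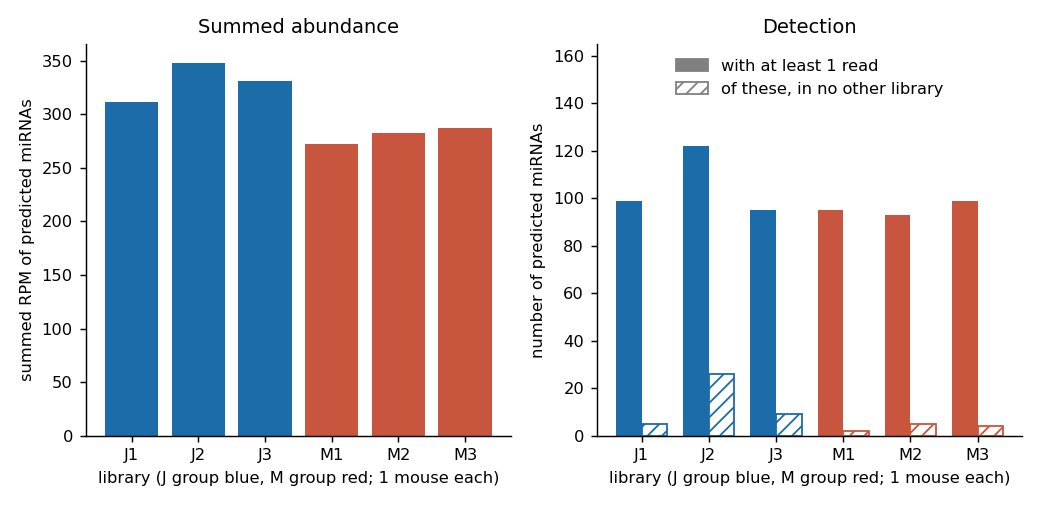
Left, summed RPM of the 192 predicted miRNAs in each library. Right, the number with at least 1 read (filled bars) and the number found in no other library (hatched bars). The sums are 312 to 348 RPM in the J group and 272 to 287 RPM in the M group, and 26 predicted miRNAs were found in J group replicate 2 alone.

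Predicted miRNAs read in the J group only numbered 50 (26.04%), and those read in the M group only numbered 19 (9.90%), at 10701763 and 10332951 miRNA reads per group. Over all 1039 rows the shares were 13.96% and 9.62%, so the share read in the M group only was near that of all rows. Without those read in J group replicate 2 alone, the former were 24 of 192, against 81 of all 1039 rows. For the annotated mouse miRNAs the numbers were 56 (7.35%) and 60 (7.87%). None of the 192 predicted miRNAs was read in all 3 libraries of one group and in 0 of the other.

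The 192 rows came from 178 m-numbers, which run from 1 to 536 with gaps. A 5p arm alone was listed for 150 m-numbers, a 3p arm alone for 14 and both arms for 14 (7.87%). The 5p rows numbered 164 of 192 (85.4%) and held 88.0% of the predicted reads. Among the annotated mouse rows with an arm in their name, 47.7% were 5p, and both arms were listed for 204 of 461 names (44.3%). This difference is a description, as rows of a table are not replicates.

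Of the 14 m-numbers with both arms, 10 had more 5p reads and 4 more 3p reads, and for 8 neither arm had more than 10 reads in total. In 4 of the 14 both arms were never read in the same library. At least 1 arm passed the filter for 6 of them, and both arms only for m0407. No pair had at least 10 reads of both arms in every library.

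m0407 was the single hairpin with both arms read in all 6 libraries. Its 5p arm had 9, 8 and 7 reads in J mice, against 4, 6 and 15 in M mice, and its 3p arm had 7, 4 and 4 reads in J mice, against 5, 6 and 7 in M mice. In total the 5p arm had 49 reads and the 3p arm 33, so that the 5p arm held 59.8% (95% Wilson interval 48.9% to 69.7%). Per library the log2 ratio of 5p to 3p was 0.49 ± 0.57 (SD, n = 6). It was 0.72 ± 0.33 in J mice and 0.26 ± 0.75 in M mice (SD, n = 3 each), a difference smaller than the spread (exact two-sided permutation test, p = 0.4).

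The other 5 hairpins with an arm past the filter were read mainly from one arm. m0518 had 234 reads of its 5p arm and 2 of its 3p arm, 1 each in J group replicate 3 and M group replicate 3. m0152 had 98 and 2 reads, with both 3p reads in M group replicate 2, and m0073 had 102 and 3. m0248 had 92 reads of the 5p arm and 8 of the 3p arm, 4 of these in J group replicate 2. Their 5p arms held 92.0% to 99.2% of the reads. m0302 was the reverse, with 45 reads of its 3p arm and 3 of its 5p arm, all 3 in J group replicate 2, where the 3p arm had 4. None of these 5 differed between the groups past the thresholds except m0518-5p.

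**Figure D4:**
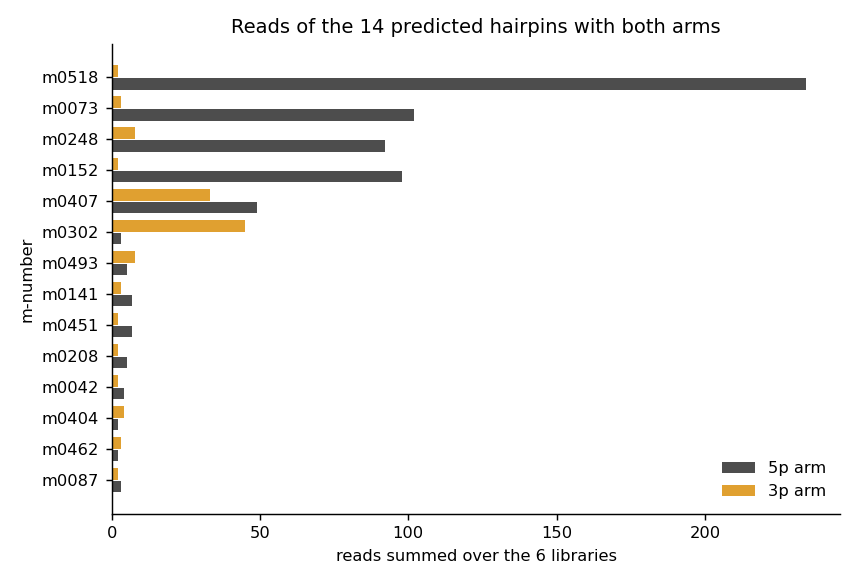
Reads of the 5p arm (grey) and of the 3p arm (orange), summed over the 6 libraries, for the 14 m-numbers with both arms. m0518 has 234 reads against 2, m0407 has 49 against 33, and m0302 has more reads of the 3p arm.

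Differences between the groups were fitted with limma on log2(RPM + 1) over all 548 miRNAs past the filter. Adding 1 RPM pulls the fold change of a rare miRNA towards 0. A miRNA was called where the log2 fold change lay beyond 0.3 in either direction and the raw p below 0.05. Of the 46 predicted miRNAs tested, 1 (2.17%) was called, against 5.29% of all 548. It was higher in the J group, as were 1.46% of all 548. After Benjamini-Hochberg adjustment over all 548, none of the 46 predicted miRNAs was under 0.05 with limma (smallest adjusted p 0.64), and 1 was under 0.05 before adjustment. On the recovered reads edgeR called 3 of the 46 (8.21% of all 548) and DESeq2 called 1 (6.57% of all), none with an adjusted p under 0.05. The log2 fold change was above 0 for 30 of the 46 predicted miRNAs and for 41.1% of all 548. Some of the 46 reached the filter only through the group where they were higher. Their signs were partly fixed by it, which limits the reading of this count and of the median. The median was 0.11 over the predicted miRNAs, within a range of -1.06 to 0.999, and -0.13 over all 548. Under DESeq2 both medians were higher, at 0.28 and -0.011.

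The count of 1 was read against the same share under each other setting. It stayed at 1 with an added 0.1 RPM (4.74% of all miRNAs tested), with an added 10 RPM (4.38%), with a filter at 10 RPM, where 8 predicted miRNAs were tested (12.5% of them, against 7.95% of all), and without mmu-miR-122-5p in the total (6.03%). The miRNA called with the filter at 10 RPM, m0518-5p, had means of 14.8 RPM in J and 7.29 RPM in M mice. It reached that filter only through the J group, so its direction there was partly fixed. The count was 2 of 192 with no filter (3.46% of all 1039), 3 after median-of-ratios scaling (5.47%) and 2 with a term for the replicate number (4.93%). With J group replicates 1, 2 or 3 left out it was 2, 2 and 1, beside 5.66%, 3.83% and 6.93% of all. With M group replicates 1, 2 or 3 left out it was 5, 1 and 2, beside 5.84%, 8.21% and 6.93%. Of the 5 without M group replicate 1, m0232-5p, m0269-5p and m0154-3p reached the filter only through the group where they were higher, so their direction was partly fixed by it.

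m0518-5p was the predicted miRNA called. Its reads in the J mice were 51, 61 and 44, which is 11.8, 17.0 and 15.7 RPM. Those in the M mice were 17, 20 and 41, which is 6.47, 5.86 and 9.54 RPM. All J values exceeded all M values, but the nearest libraries were close, as the 95% Wilson intervals were 8.99 to 15.5 RPM in J group replicate 1 and 7.04 to 12.9 RPM in M group replicate 3. With limma the log2 fold change was 0.94 ± 0.30 (SE), at an unadjusted p of 0.0164 and an adjusted p of 0.64. Over all 15 alternatives the adjusted p was 0.26 to 0.83. It passed the thresholds under 13 of them and did not without J group replicate 2 (0.84) or without M group replicate 2 (0.82). Among the 13 was the filter at 10 RPM, which it reached only through the J group. Its hairpin was read almost only from the 5p arm, as described above.

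For 4 of the 46 predicted miRNAs (8.70%) the values of J and M mice stood apart without overlap, against 13.5% of all 548. J lay above M for 3 of the 4, as for 4.2% of all 548. Besides m0518-5p these were m0269-5p, m0478-5p and m0407-3p, all with few reads. m0269-5p (means of 1.23 RPM in J and 0.457 RPM in M mice) and m0478-5p (1.12 and 0.302 RPM) reached the filter only through the J group, so their place above M in this count was partly fixed by the filter. m0269-5p had 5, 4 and 4 reads in J mice, against 1, 1 and 3 in M mice, and limma gave a log2 fold change of 0.62 ± 0.33 (SE), adjusted p = 0.71. m0478-5p had 3, 7 and 2 reads against 1, 1 and 1, and limma gave 0.65 ± 0.37 (SE), adjusted p = 0.71, while edgeR gave 1.90 and called it (unadjusted p = 0.0497, 1 of the 3 edgeR calls). Without J group replicate 2, which held 7 of its 12 reads in J mice, limma gave 0.39. m0407-3p had 7, 4 and 4 reads against 5, 6 and 7, and was lower in every J library only after division by depth, with -0.22 ± 0.30 (SE) as its log2 fold change. In all 3 the Wilson intervals of the nearest libraries overlapped, which at so few reads does not test the difference between the groups.

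m0460-5p had the lowest log2 fold change of the 46, at -1.06 ± 0.92 (SE) and a limma adjusted p of 0.71, which rests on the 27 reads of M group replicate 1 alone. Its means were 0.0773 RPM in J and 3.43 RPM in M mice, so it reached the filter only through the M group. Its direction was thus partly fixed by the filter, through this same library. Without that library its log2 fold change was 0.10. With all libraries it was -1.66 with an added 0.1 RPM and -0.33 with an added 10 RPM, and edgeR on the recovered reads gave -4.52. Of the arms of the both-arm hairpins not yet given, m0073-5p had a log2 fold change of 0.039, m0152-5p of 0.45, m0248-5p of 0.53, m0302-3p of 0.10 and m0407-5p of 0.053, and none passed the thresholds. That of m0248-5p was 0.30 without J group replicate 3, 0.31 without M group replicate 2 and 0.91 without M group replicate 3.

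**Figure D5:**
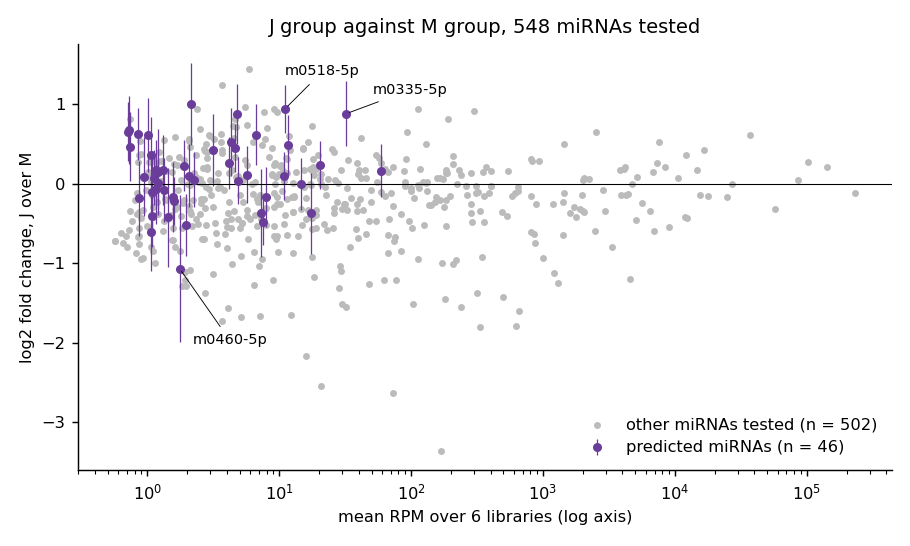
Log2 fold change of J over M against mean RPM (log axis) for the 46 predicted miRNAs tested (purple, bars are standard errors from limma) and the other miRNAs tested (grey). The predicted miRNAs lie at the low end of abundance, up to 59.1 RPM, with log2 fold changes of -1.06 to 0.999.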

How the data were processed

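Per the study's methods, the authors prepared small RNA libraries with a NEBNext kit, sequenced them on an Illumina HiSeq, filtered the reads, and compared unique reads with Rfam and miRBase to find known and predicted miRNAs. The deposited values are RPM, for which the authors divided each miRNA's reads by the miRNA total of the library. The submitters' processing notes name the build mm9. The program that predicted the hairpins is not given in the sources used here.

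Each library sums to 1000000 RPM, and 100% of the values were whole multiples of 1 read (within 0.01 reads). Intervals are 95% Wilson intervals and cover counting error only, since PCR copies were not told apart. Limits are 3 reads. Expected detection at equal depth was computed by hypergeometric thinning.

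limma 3.58.1 in R 4.3.3 (lmFit, eBayes with a variance trend, two-sided) was run on log2(RPM + 1) for the 548 miRNAs with a mean above 1 RPM in a group. edgeR 4.0.16 and DESeq2 1.42.0 were run on the recovered reads as alternatives. Sums and ratios were compared by exact permutation over the 10 splits. The limma, edgeR and DESeq2 fits were run on simulated counts before use. Tables were made with Python 3.11.15, pandas 2.3.3, numpy 2.4.6 and scipy 1.17.1, and figures with matplotlib 3.10.9.

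Groups were taken from the sample titles. The predicted miRNAs, the lists and the rules were chosen with earlier results of these data known. The text names the 10 predicted miRNAs with the highest mean RPM, those past the thresholds, up to 5 others whose groups do not overlap, both arms of hairpins with an arm past the filter, and those at least 4-fold above all other libraries in 1 library. Others were named after their values were seen. Alternatives were an added 0.1 or 10 RPM, no filter, a filter at 10 RPM, median-of-ratios scaling, RPM without mmu-miR-122-5p, edgeR, DESeq2, a replicate term and each library left out. Replicates with the same number are not said to come from paired mice, and they did not deviate together (correlations 0.05, 0.06 and -0.01). The numbers were not taken to pair mice, although such weak correlations cannot settle this.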

Additional observations from a re-analysis of the deposited data

How the results depend on the processing

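The count of 1 predicted miRNA past the thresholds was 2 without the filter, 3 after median-of-ratios scaling and 3 with edgeR, and 1 to 5 with each library left out. The 5 were seen without M group replicate 1, namely m0154-3p, m0232-5p, m0269-5p, m0279-5p and m0518-5p. Of these m0154-3p reached the filter only through the M group, and m0232-5p and m0269-5p only through the J group, so their directions were partly fixed by it. Without J group replicate 2 the 2 called were m0198-5p (past the filter through the J group only) and m0326-5p, without M group replicate 2 the 1 called was m0251-5p, without J group replicate 1 the 2 were m0251-5p and m0518-5p, and without M group replicate 3 they were m0335-5p and m0518-5p. A term for the replicate number (replicate block) gave 2, m0310-5p and m0518-5p, but the numbers are not said to pair the mice. J group replicate 1 correlated best with M group replicate 3 (0.16), a value too weak to settle whether they do. With the block the log2 ratio of the summed RPM was 0.23 (exact permutation test, p = 0.25, the smallest it allows). The cause of these moves was not tested.

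The number detected in all 6 libraries, 40, was 24 at a minimum of 3 reads. The log2 ratio of the summed RPM, 0.23, was above 0 under every alternative run, at 0.17 to 0.43, and was 0.19 to 0.27 with each library left out. The excess of detected miRNAs in the J group, 9.67, was 15 at a minimum of 3 reads (exact permutation test, p = 0.2), 8.59 after thinning to equal depth (exact permutation test, p = 0.7) and 1.33 without J group replicate 2 (1.33 to 14.8 with each library left out). A minimum of 10 reads in both arms left no pair to compute. Depth limits most members, as 137 of 192 had fewer than 10 reads over all libraries and 146 were not tested.

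m0155-3p turned to 0.10 after median-of-ratios scaling, 0.043 with edgeR and 0.045 with DESeq2, and m0276-5p to 0.067 with edgeR and 0.065 with DESeq2. With each library left out the log2 fold change ranged from -0.087 to 0.36 for m0311-5p, -0.82 to 0.047 for m0341-5p, -0.24 to 0.22 for m0155-3p, -0.097 to 0.30 for m0254-5p, -0.49 to 0.12 for m0276-5p, -0.12 to 0.13 for m0073-5p, -0.10 to 0.38 for m0302-3p, -0.11 to 0.31 for m0407-5p and -1.65 to 0.10 for m0460-5p. The median log2 fold change of all miRNAs tested moved from -0.13 to -0.017 with edgeR and -0.011 with DESeq2, and that of the predicted miRNAs from 0.11 to 0.27 and 0.28.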

Other observations

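The predicted miRNAs given here lie outside the rule for naming and were chosen after their values were seen. m0251-5p had 4.17, 7.82 and 7.49 RPM in J mice, against 3.05, 4.398 and 1.86 RPM in M mice, where J group replicate 1 fell below M group replicate 2. Its log2 fold change of 0.88 (standard error 0.38) had an unadjusted p of 0.0527 from limma, and it passed the thresholds with edgeR and after median-of-ratios scaling. m0310-5p had the highest log2 fold change of the 46 tested, at 0.999 (standard error 0.52), with 1.85, 2.79 and 4.63 RPM in J mice, against 0, 1.47 and 2.10 RPM in M mice. The groups overlapped.

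m0521-5p had 4.87, 7.26 and 4.63 RPM in J mice, against 16.4, 7.92 and 2.79 RPM in M mice. It was highest in M group replicate 1, as m0341-5p and m0460-5p were. m0308-5p stayed below the filter with 2, 4 and 3 reads in J mice, against 0, 0 and 1 in M mice, and it was called only where no filter was applied, with a log2 fold change of 0.79. Its J values all exceeded its M values.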
